A study of Mus musculus with 12 samples.

Results

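Scavenger receptors and receptors for apoptotic cells were examined as a set of 10 genes, taken from the count and FPKM tables by their symbols: Mertk, Axl, Gas6, Lrp1, Stab1, Marco, Msr1, Scarb1, Clec7a and Cd163. All 10 were found among the 54532 genes of the tables, each under 1 gene identifier, and all 10 passed the filter on low counts in every comparison. RNA-seq had been performed on 12 libraries of mouse bone marrow macrophages (BMMs), which are cells grown from marrow precursors with the growth factor CSF-1. All 4 groups came from wild-type C57BL/6J mice of 2 to 3 months, whose marrow cells received 12 ng/ml and then, for 48 h, 120 ng/ml of CSF-1. The cells were passaged onto uncoated dishes or dishes coated with fibronectin, the matrix protein that ITGA5 (integrin α5) binds, and each group held 3 libraries. On each coating they received 10 µg/ml of an isotype-matched IgG or of a neutralizing antibody against ITGA5 for 24 h. The libraries report transcripts of cultured macrophages, and neither protein nor uptake itself. The study describes its replicates of cultured macrophages as biologically independent experiments, whereas the sample labels do not say whether they were separate cultures or animals, and the p-values measure the spread between these samples.

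Macrophages remove dying cells and modified lipoproteins through surface receptors that recognize their cargo directly or through a bridging protein. MERTK and AXL, receptor tyrosine kinases of the TAM family, bind GAS6, a bridging ligand that attaches to the phosphatidylserine exposed on apoptotic cells. LRP1, stabilin-1 and the scavenger receptors MARCO, MSR1, SCARB1 and CD163 take up a range of ligands, and dectin-1, the product of Clec7a, recognizes fungal β-glucan. The questions addressed here were whether transcripts of these genes differed upon ITGA5 neutralization, with fibronectin coating, and between coatings in the effect of the antibody.

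The labelled cell type was checked against marker genes. All 7 macrophage markers (Csf1r, Adgre1, Itgam, Lyz2, Fcgr1, Cd14 and Cd68) were above 1 FPKM. Their summed level was 8951 to 9797 FPKM in IgG and 6112 to 7499 FPKM upon ITGA5 neutralization without fibronectin, and 9536 to 9736 and 7318 to 7490 FPKM with fibronectin. Lyz2, which encodes lysozyme, made up most of this sum and was lower upon neutralization on both coatings, as were Itgam and Cd68, whereas Cd14 was higher and Csf1r and Adgre1 were not called. The part that this shift plays in the results on the uptake receptors was not tested. In bulk RNA, fewer cells of a type and less RNA per cell cannot be told apart. The 8 neutrophil markers summed to 1.86 to 4.52 FPKM, with Ly6g at 0 in all 12 libraries, and the 6 endothelial markers summed to 2.37 to 3.52 FPKM, mostly from Kdr. Markers of dendritic cells, fibroblasts, B cells, T cells and erythroid cells summed to at most 0.481 FPKM in any library. Totals were 12954342 to 22075432 counts per library. The shallowest library, anti-ITGA5 replicate 2 without fibronectin, also stood farthest from its own group (mean correlation of log2 CPM 0.981 with the others of its group), and values without it are given beside the antibody effect on that coating and the coating effect in anti-ITGA5. Itga5 itself, whose protein the antibody blocks, was at 46.1 and 51.0 FPKM without fibronectin and 46.9 and 49.4 FPKM with fibronectin in IgG and anti-ITGA5, and was not called (edgeR, adjusted p = 0.0906 and 0.273).

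Levels of the 10 genes ran from near the middle to the top of the range of expressed genes. On the FPKM scale, which divides counts by gene length and depth and allows comparison between genes, Lrp1 (mean of the 12 libraries 410 FPKM), Stab1 (391 FPKM), Gas6 (299.9 FPKM) and Msr1 (161 FPKM) were above 98.2% or more of the 13455 genes with enough counts over all libraries. Mertk, at 20.4 FPKM, was above 82.3% of them. Clec7a (11.1 FPKM), Scarb1 (10.7 FPKM) and Axl (7.05 FPKM) lay above 68.9%, 67.8% and 57.3%, and Marco (4.50 FPKM) and Cd163 (4.33 FPKM) above 46.3% and 45.3%. In IgG without fibronectin the order was Lrp1, Stab1, Gas6, Msr1, Mertk, Scarb1, Clec7a, Axl, Cd163 and Marco, and the libraries of neighbouring genes overlapped only between Scarb1 and Clec7a and between Cd163 and Marco. The first 5 places were the same in all 4 groups, although Lrp1 and Stab1 overlapped in both anti-ITGA5 groups. Marco was last in both groups without fibronectin and above Cd163 in both groups with fibronectin, where Marco and Cd163 overlapped in anti-ITGA5. Replicates were tightest for Stab1, with a coefficient of variation within groups of 1.92%, and widest for Axl (13.4%) and Marco (14.4%).

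**Figure D1:**
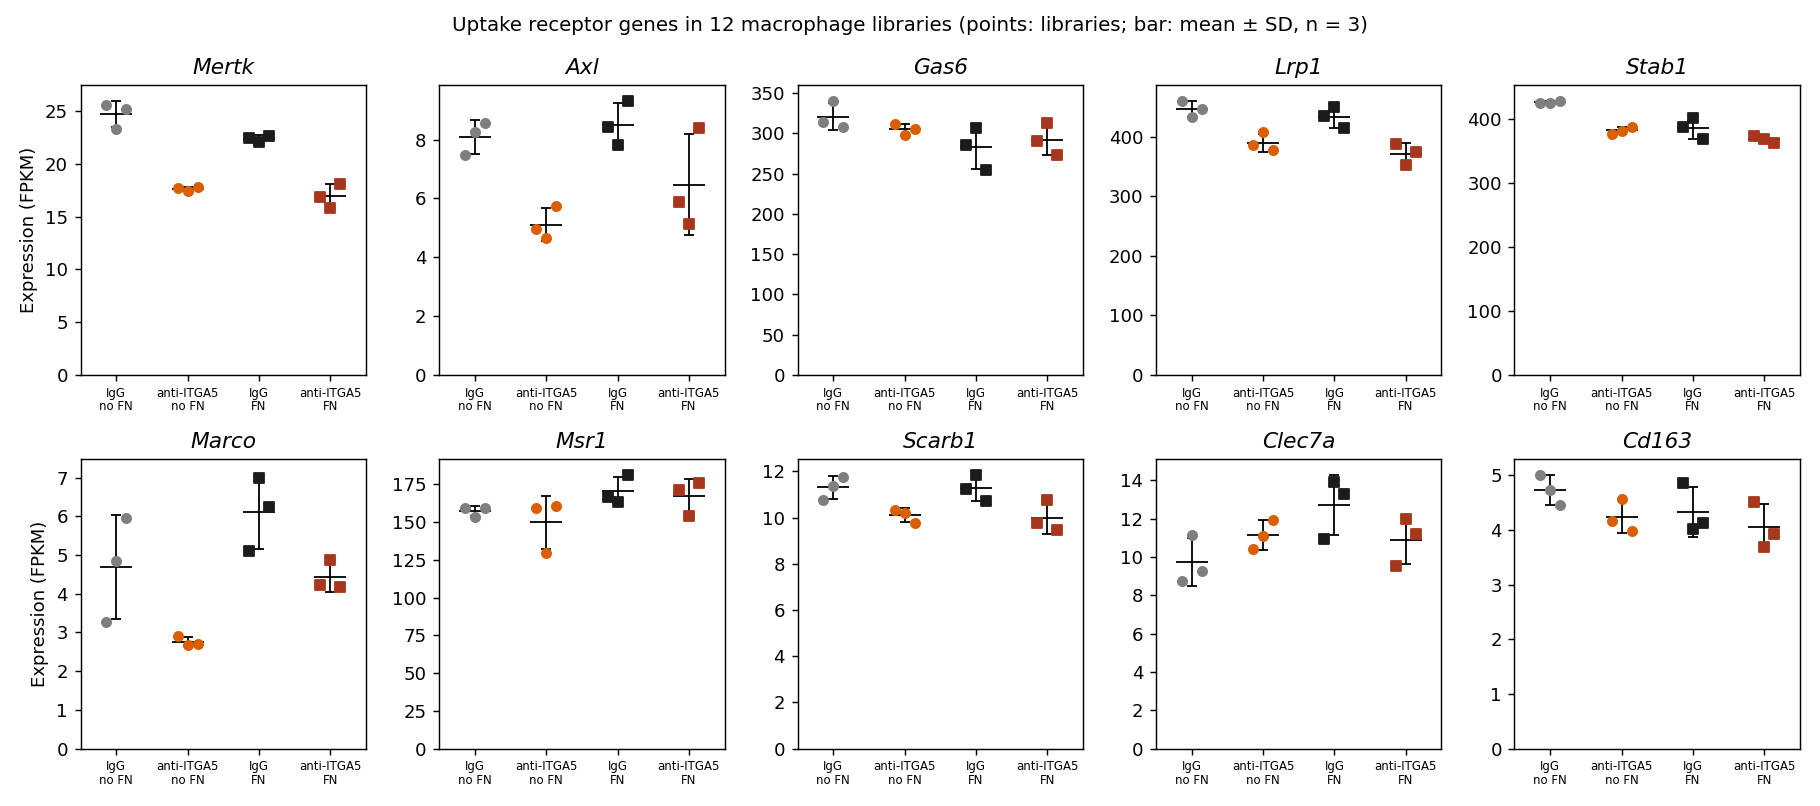
Expression of the 10 uptake receptor genes in FPKM (vertical axes, from 0), by group of antibody and coating (FN, fibronectin). Points are the 3 libraries of a group and bars are the mean ± SD. In Mertk, Marco and Lrp1 the anti-ITGA5 libraries lie below the IgG libraries on both coatings, whereas those of Gas6, Msr1, Clec7a and Cd163 overlap.

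ITGA5 neutralization lowered the transcripts of several of these genes and raised none. Without fibronectin, Mertk, Axl, Lrp1, Stab1 and Marco were lower, which is 5 of 10 lower and 0 higher, against 9.79% lower and 11% higher among all 12924 genes tested (edgeR's quasi-likelihood test, adjusted p of 0.05 or less, 20.8% in either direction). With fibronectin, Mertk, Axl, Lrp1, Scarb1 and Marco were lower, again 5 of 10 lower and 0 higher, against 13.2% lower and 14.4% higher among 12916 genes (27.6% in either direction). No member was higher at an unadjusted p under 0.05 (0 on each coating), by DESeq2 (0 and 0) or by limma (0 and 0). At an unadjusted p under 0.05, 6 were lower on each coating, while DESeq2 called 5 and 3 lower and limma 2 and 3 lower, without and with fibronectin. Over all genes, 4329 and 4996 were under that unadjusted p in either direction. Without fibronectin DESeq2 called 1046 lower and 1091 higher of 12583 genes, and limma 936 lower and 1068 higher of 12666. With fibronectin DESeq2 called 1310 lower and 1564 higher of 11955 genes, and limma 1258 lower and 1534 higher of 12224. The median log2 fold change of the 10 genes was -0.16 without and -0.20 with fibronectin, beside 0.0090 and -0.0038 over all genes tested, and 9 of the 10 were negative on each coating. The 10 genes are few and were chosen by name, and nothing particular to them follows from these counts. Mertk, Axl, Lrp1 and Marco, 4 of the 10, passed the threshold on both coatings, and the share of all genes that did so was not counted. In FPKM, all anti-ITGA5 libraries lay below all IgG libraries for 6 genes without and 3 genes with fibronectin, and above them for 0. Over all genes, 19.4% lay below and 18.7% above without fibronectin (38.2% in all), and 20.6% below and 21.7% above with fibronectin (42.4% in all). Without anti-ITGA5 replicate 2 without fibronectin, 6 members were lower on that coating, Scarb1 being added. The count on that coating was 2 without anti-ITGA5 replicate 1 or IgG replicate 3, and 3 without anti-ITGA5 replicate 3 or IgG replicates 1 or 2. With fibronectin it was 2 without anti-ITGA5 replicate 1 or IgG replicate 2, and 4 without any other single library.

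**Figure D2:**
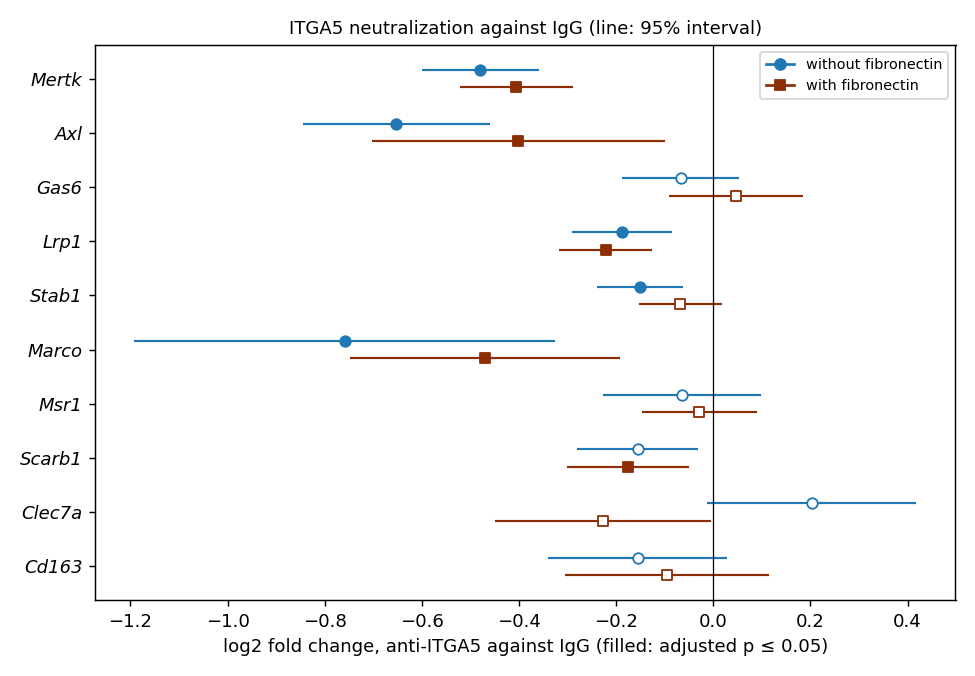
Log2 fold changes of anti-ITGA5 against IgG (horizontal axis) for the 10 genes, without (circles) and with fibronectin (squares). Lines are 95% intervals of the fit, and filled symbols passed an adjusted p of 0.05. Mertk, Axl, Lrp1 and Marco are filled on both coatings, from -0.19 for Lrp1 to -0.76 for Marco without fibronectin.

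The sequences immediately upstream of the 4 genes that fell on both coatings are shown to place them side by side, since all 4 were called lower on each. Each is 250 bases ending just before the RefSeq transcription start (RefSeq, GRCm38.p6), read 5′ to 3′ on the strand of the gene. Mertk lies at chr2:128698665-128698914 (+), Axl at chr7:25788734-25788983 (-), Marco at chr1:120505025-120505274 (-) and Lrp1 at chr10:127621149-127621398 (-). Capitals mark the letters GAGGAA (the core of the motif bound by PU.1, the lineage factor of macrophages) and GGGCGG (the GC box bound by Sp factors), or their reverse complements.
Mertk: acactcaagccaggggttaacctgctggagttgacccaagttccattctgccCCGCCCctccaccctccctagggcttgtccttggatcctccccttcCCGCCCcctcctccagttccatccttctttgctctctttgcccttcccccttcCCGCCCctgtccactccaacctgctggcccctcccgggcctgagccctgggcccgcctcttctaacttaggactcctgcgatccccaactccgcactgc
Axl: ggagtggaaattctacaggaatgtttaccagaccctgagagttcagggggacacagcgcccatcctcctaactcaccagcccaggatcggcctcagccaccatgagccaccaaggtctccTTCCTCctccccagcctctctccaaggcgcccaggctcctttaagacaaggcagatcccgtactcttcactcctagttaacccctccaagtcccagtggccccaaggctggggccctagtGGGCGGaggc
Marco: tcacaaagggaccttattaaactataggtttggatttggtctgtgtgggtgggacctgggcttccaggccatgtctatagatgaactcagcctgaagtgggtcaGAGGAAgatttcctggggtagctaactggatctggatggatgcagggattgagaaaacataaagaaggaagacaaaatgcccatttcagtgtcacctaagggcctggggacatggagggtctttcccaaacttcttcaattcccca
Lrp1: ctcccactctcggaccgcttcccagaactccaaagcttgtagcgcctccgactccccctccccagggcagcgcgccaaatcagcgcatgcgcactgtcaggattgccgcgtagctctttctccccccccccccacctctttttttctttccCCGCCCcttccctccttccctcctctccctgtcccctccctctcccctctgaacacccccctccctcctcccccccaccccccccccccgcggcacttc
The window of Mertk held 3 GC boxes, all on the reverse strand, beginning 198, 152 and 99 bases before the start. That of Axl held a GC box 10 bases before the start and the PU.1 core on the reverse strand 130 bases before it. Marco held the PU.1 core 146 bases before the start, and Lrp1 a GC box on the reverse strand 99 bases before it. Of all 32851 promoter windows of this length, 23.3% held GAGGAA and 32.7% held GGGCGG on either strand, so these letters are common. The letters TGACTCA (AP-1) and AGGTCA (a nuclear receptor core), found in 4.46% and 14% of all windows, were in none of these 4 windows. A match is a description of the sequence, not a site of binding. Of the 10 genes, 8 matched the promoter table. Msr1 and Scarb1 did not.

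Mertk, the TAM kinase best known for uptake of apoptotic cells by macrophages, showed the steadiest fall. It lies on the plus strand of chromosome 2 from 128698956 to 128802894 (GRCm38) and had 1039 to 2078 counts. Without fibronectin the libraries of replicates 1, 2 and 3 were at 25.5, 23.3 and 25.2 FPKM in IgG and at 17.7, 17.4 and 17.8 FPKM upon ITGA5 neutralization. On fibronectin they were at 22.4, 22.01 and 22.6 FPKM in IgG and at 16.8, 15.8 and 18.1 FPKM upon neutralization. Every anti-ITGA5 library lay below every IgG library, also across coatings. Mean expression was 24.7 ± 1.23 against 17.6 ± 0.199 FPKM without and 22.4 ± 0.322 against 16.9 ± 1.13 FPKM with fibronectin (SD, n = 3 each), with p = 0.10 on each coating by a 2-sided exact permutation test, the smallest that 3 against 3 allows. Mertk fell by 28.3% without fibronectin (log2 fold change -0.48, SE, the standard error, 0.0546, edgeR adjusted p = 0.000185) and fell by 24.5% with fibronectin (log2 fold change -0.41, SE 0.0533, edgeR adjusted p = 0.000139). Mertk kept the threshold in all 16 alternatives on each coating, with adjusted p-values of at most 0.00803 and 0.0131, and it was -0.48 without anti-ITGA5 replicate 2 without fibronectin. The overlapping annotated genes Gm23172 and Gm14011 had at most 14 counts.

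Axl, the TAM kinase that is commonly raised in inflamed tissue, lies on the minus strand of chromosome 7 from 25757273 to 25788705 and had 322 to 868 counts. Without fibronectin it was at 7.46, 8.25 and 8.58 FPKM in IgG and at 4.95, 4.65 and 5.74 FPKM upon ITGA5 neutralization. On fibronectin Axl was at 8.42, 7.81 and 9.30 FPKM in IgG and at 5.88, 5.13 and 8.40 FPKM upon neutralization. The groups did not overlap without fibronectin, but with fibronectin anti-ITGA5 replicate 3 was as high as the IgG libraries. Without fibronectin Axl fell by 36.4% (log2 fold change -0.65, SE 0.0867, edgeR adjusted p = 0.000481), and it passed in all 16 alternatives, at -0.60 (edgeR adjusted p = 7.63e-05) without anti-ITGA5 replicate 2. On fibronectin Axl was near the threshold (log2 fold change -0.40, SE 0.139, edgeR adjusted p = 0.0482), and the call was lost in 10 of 16 alternatives. It was lost without anti-ITGA5 replicates 1 (adjusted p = 0.178) or 2 (0.176) with fibronectin, and without IgG replicates 1 (0.115), 2 (0.052) or 3 (0.154) with fibronectin. Without anti-ITGA5 replicate 3 with fibronectin, the log2 fold change was -0.63 (edgeR adjusted p = 2.85e-05). With 1 library left out it ran from -0.63 to -0.26, and over all alternatives adjusted p-values ran from 2e-06 to 0.285.

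Gas6, the ligand of both kinases, was not called on either coating. It lies on the minus strand of chromosome 8 from 13465374 to 13494490 and was abundant, with 10435 to 17037 counts. In IgG it was at 313, 340 and 308 FPKM without and at 285, 307 and 255 FPKM with fibronectin. Upon neutralization it was at 311, 297 and 306 FPKM without and at 290, 313 and 274 FPKM with fibronectin, so that the groups overlapped on each coating. The log2 fold changes were -0.07 (95% interval -0.19 to 0.05, adjusted p = 0.427, edgeR) and 0.05 (95% interval -0.09 to 0.19, adjusted p = 0.623). These intervals leave out a fall as large as that of Mertk, and the first difference was -0.06 without anti-ITGA5 replicate 2. The ratio of Gas6 to Mertk in FPKM, a measure chosen after the values were seen, was 13.03 ± 1.36 in IgG and 17.3 ± 0.247 upon neutralization without fibronectin (SD, n = 3). With fibronectin it was 12.6 ± 1.35 and 17.4 ± 2.31 (SD, n = 3), and the anti-ITGA5 libraries lay above the IgG libraries on both coatings (p = 0.10 by a 2-sided exact permutation test, which cannot go lower). The ratio of Gas6 to Axl was 39.7 ± 3.30 in IgG and 60.04 ± 5.90 upon neutralization without fibronectin, again without overlap, but 33.5 ± 5.96 and 47.6 ± 14.3 with fibronectin, where the groups overlapped (SD, n = 3 each; 2-sided exact permutation p = 0.10 and 0.30). Of the other TAM components, Tyro3 had 1 to 9 counts per library and was not tested. Pros1, which encodes the second bridging ligand protein S, was not called (log2 fold change -0.09 and -0.12, adjusted p = 0.585 and 0.237).

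Lrp1 and Stab1 encode large endocytic receptors and were the most abundant of the 10 transcripts. Lrp1, which takes up many ligands including apoptotic cells opsonized with calreticulin, lies on the minus strand of chromosome 10 from 127538161 to 127621148 and had 99394 to 173501 counts. Without fibronectin it was at 459, 433 and 447 FPKM in IgG and at 386, 407 and 377 FPKM upon ITGA5 neutralization. The values with fibronectin were 435, 450 and 414 FPKM in IgG and 389, 353 and 374 FPKM upon neutralization. The anti-ITGA5 libraries were below the IgG libraries on each coating, and Lrp1 fell by 12.2% (log2 fold change -0.19, SE 0.0464, edgeR adjusted p = 0.0161) and fell by 14.2% (-0.22, SE 0.0442, edgeR adjusted p = 0.00266). Without fibronectin the call was lost in 8 of 16 alternatives, among them without anti-ITGA5 replicates 1 (adjusted p = 0.0568) or 3 (0.0718) and without IgG replicates 1 (0.086) or 3 (0.0576), and adjusted p-values ran from 7.07e-05 to 0.272. Without anti-ITGA5 replicate 2 it was -0.23 (adjusted p = 7.07e-05). With fibronectin it was lost in 1 of 16, limma on log2(FPKM + 1) without a filter (adjusted p = 0.0745, in a range from 1.97e-10).

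Stab1, whose product stabilin-1 binds phosphatidylserine and modified lipoproteins, lies on the minus strand of chromosome 14 from 31139013 to 31168641 and had 54094 to 90218 counts. Stab1 without fibronectin was at 425, 425 and 428 FPKM in IgG and at 378, 382 and 389 FPKM upon neutralization, 2 narrow groups that did not overlap. On fibronectin Stab1 was at 389, 403 and 369 FPKM in IgG and at 374, 370 and 364 FPKM upon neutralization, and these groups overlapped. Stab1 fell by 9.90% without fibronectin (log2 fold change -0.15, SE 0.0401, edgeR adjusted p = 0.023) and was at -0.07 (SE 0.0393, edgeR adjusted p = 0.223) with it. The first call was lost in 10 of 16 alternatives, among them without anti-ITGA5 replicates 1 (adjusted p = 0.088) or 3 (0.0702) and without IgG replicates 1 (0.088), 2 (0.0595) or 3 (0.0742), and adjusted p-values ran from 0.00119 to 0.319. Without anti-ITGA5 replicate 2 it was -0.16 (adjusted p = 0.0015). Nt5dc2, on the opposite strand, overlaps Stab1 and had up to 4138 counts. Since the strand used in counting is not given in the sources used here, reads of both genes may not have been told apart where they overlap.

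Marco and Msr1, the class A scavenger receptors that bind bacteria and modified lipoproteins, differed in level, and Marco was called lower upon neutralization whereas Msr1 was not. Their ratio in FPKM overlapped between antibody groups on each coating (2-sided exact permutation p = 0.20 on each), so that a difference in response was not shown. Marco, on the minus strand of chromosome 1 from 120474538 to 120505024, had only 71 to 293 counts. Without fibronectin it was at 3.28, 4.85 and 5.96 FPKM in IgG and at 2.90, 2.68 and 2.71 FPKM upon ITGA5 neutralization. On fibronectin Marco was at 5.11, 6.99 and 6.25 FPKM in IgG and at 4.23, 4.88 and 4.18 FPKM upon neutralization. The groups were apart on each coating, but the IgG libraries spread widely, and IgG replicate 1 without fibronectin lay close to the anti-ITGA5 libraries. Of the 10 genes Marco had the most negative log2 fold change on each coating. It fell by 40.9% without (-0.76, SE 0.196, edgeR adjusted p = 0.0199) and fell by 27.8% with fibronectin (-0.47, SE 0.128, edgeR adjusted p = 0.0165). The calls were lost in 6 and 4 of 16 alternatives. Without fibronectin these included the fits without anti-ITGA5 replicate 1 (adjusted p = 0.0511) and without IgG replicates 2 (0.0749) or 3 (0.0953), and adjusted p-values ran from 1.08e-05 to 0.178. With fibronectin they included the fits without anti-ITGA5 replicate 1 (0.0705) and without IgG replicate 2 (0.0746), and adjusted p-values ran from 0.00104 to 0.115. Marco was at -0.75 without anti-ITGA5 replicate 2 without fibronectin.

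Msr1, on the minus strand of chromosome 8 from 39581685 to 39642673 and with 11326 to 22503 counts, was not called. Msr1 without fibronectin was at 159, 153 and 159 FPKM in IgG and at 160, 130 and 161 FPKM upon ITGA5 neutralization, and the 1 low value was that of the shallowest library. On fibronectin Msr1 was at 167, 163 and 181 FPKM in IgG and at 171, 154 and 176 FPKM upon neutralization. Its log2 fold changes were -0.06 (95% interval -0.23 to 0.10, adjusted p = 0.591, edgeR) and -0.03 (95% interval -0.15 to 0.09, adjusted p = 0.734), and the first became 0.0243 without the shallowest library. The 3 genes whose log2 CPM resembled that of Marco most over the 12 libraries, among 9880 genes with at least 50 counts in each, were Arrdc4 (Pearson's r = 0.918), C9orf72 (0.916) and Slpi (0.913), where the libraries share the 4 groups. Within groups, r was 0.807, 0.67 and 0.666. Slpi, which encodes a secreted protease inhibitor, was at 9.74 ± 1.89 FPKM in IgG and 3.88 ± 0.686 FPKM upon neutralization without fibronectin, and at 12.99 ± 2.47 and 6.75 ± 0.112 FPKM with fibronectin (SD, n = 3 each; log2 fold change -1.31 and -0.95). Arrdc4 was at -0.41 and -0.42 and C9orf72 at -0.24 and -0.20 on the log2 scale. These genes were chosen for likeness to Marco, itself chosen for its fall, so their falls are no separate result.

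Scarb1, Clec7a and Cd163 showed small or unlike differences. Scarb1, the receptor for high-density lipoprotein, lies on the minus strand of chromosome 5 from 125277087 to 125341094 and had 1196 to 2190 counts. It was at 10.8, 11.4 and 11.8 FPKM in IgG and at 10.3, 10.2 and 9.77 FPKM upon ITGA5 neutralization without fibronectin, without overlap. With fibronectin it was at 11.2, 11.8 and 10.7 FPKM in IgG and at 9.75, 10.8 and 9.44 FPKM upon neutralization, where replicate 2 of anti-ITGA5 reached the IgG libraries. Its log2 fold changes were -0.16 (SE 0.0565, edgeR adjusted p = 0.0761) and -0.17 (SE 0.058, edgeR adjusted p = 0.0404). Only the second was called, and it was lost in 9 of 16 alternatives. These included the fits without anti-ITGA5 replicates 1 (adjusted p = 0.14) or 3 (0.0909) and without IgG replicates 1 (0.0946) or 2 (0.135) with fibronectin, and adjusted p-values ran from 0.00331 to 0.198. Without anti-ITGA5 replicate 2 without fibronectin, Scarb1 passed on that coating too (-0.17, adjusted p = 0.0278), with a range of 0.0278 to 0.248 over the alternatives.

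Clec7a, listed in the tables as a polymorphic pseudogene on the minus strand of chromosome 6 from 129461591 to 129472779, had 400 to 799 counts. It was at 8.78, 11.1 and 9.28 FPKM in IgG and at 10.4, 11.1 and 12.0 FPKM upon ITGA5 neutralization without fibronectin. On fibronectin Clec7a was at 10.9, 13.9 and 13.3 FPKM in IgG and at 9.51, 12.0 and 11.2 FPKM upon neutralization. The groups overlapped on each coating, and the fitted differences had opposite signs, 0.20 (95% interval -0.01 to 0.42, adjusted p = 0.173, edgeR) without and -0.23 (95% interval -0.45 to -0.0044, adjusted p = 0.122) with fibronectin. Without anti-ITGA5 replicate 2 the first was 0.20 (edgeR adjusted p = 0.141), and with 1 library left out it ran from 0.13 (without IgG replicate 1) to 0.31 (without IgG replicate 2), with edgeR adjusted p-values from 0.0507 to 0.481. With fibronectin the difference passed the threshold in 3 of 16 alternatives, among them without IgG replicate 1 (-0.33, adjusted p = 0.0395) and when every gene with a count was tested (0.0335), in a range of 0.0111 to 0.413.

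Cd163, the receptor for haptoglobin bound to hemoglobin, lies on the plus strand of chromosome 6 from 124304656 to 124330527 and had 344 to 488 counts. It was at 5.002, 4.72 and 4.45 FPKM in IgG and at 4.16, 4.57 and 3.98 FPKM upon neutralization without fibronectin. On fibronectin Cd163 was at 4.86, 4.01 and 4.12 FPKM in IgG and at 4.52, 3.69 and 3.93 FPKM upon neutralization. The groups overlapped on both coatings, and the fitted differences were -0.16 (SE 0.0833, edgeR adjusted p = 0.223) and -0.10 (SE 0.0968, edgeR adjusted p = 0.503) on the log2 scale. With 1 library left out they ran from -0.22 (without anti-ITGA5 replicate 2, edgeR adjusted p = 0.0583) to -0.11 without fibronectin, and from -0.18 to -0.011 (without IgG replicate 1) with fibronectin.

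**Figure D3:**
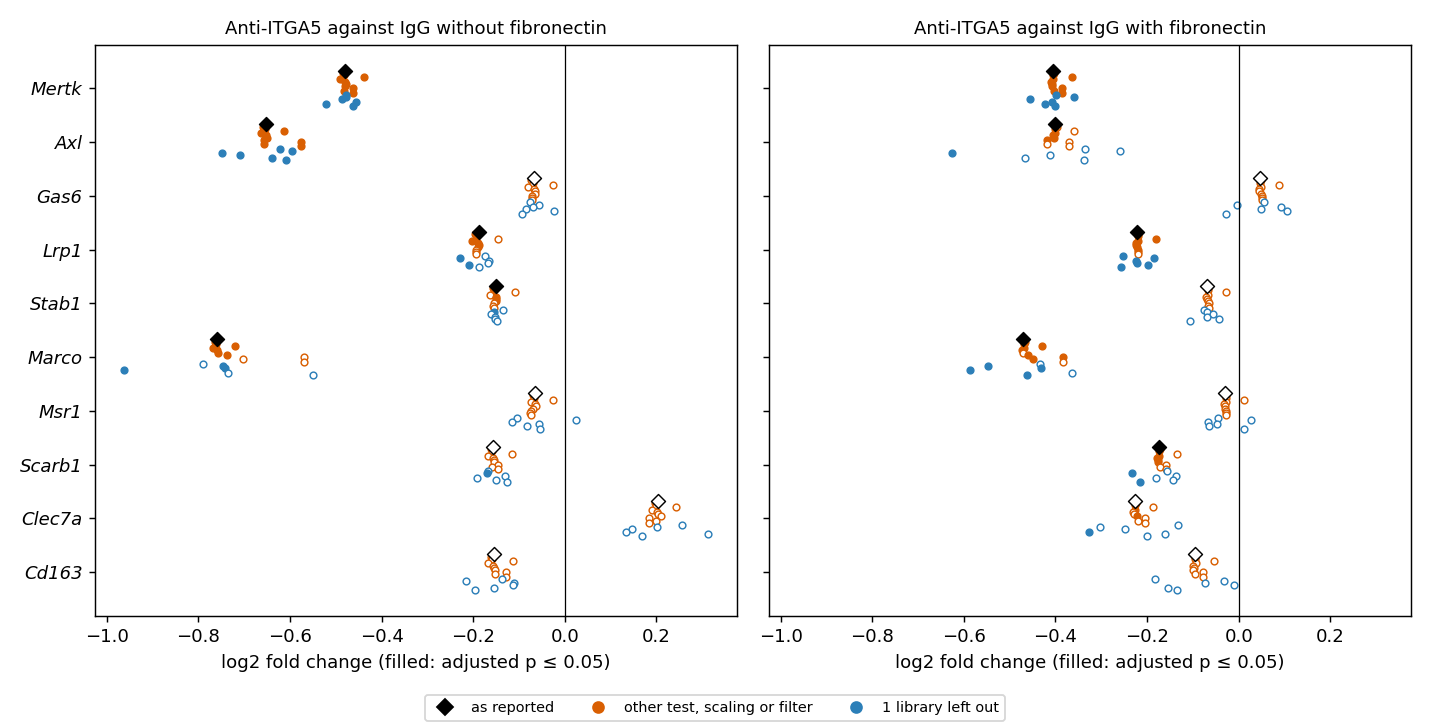
Log2 fold changes of anti-ITGA5 against IgG (horizontal axes) for each gene under the reported fit (diamonds), under another test, scaling, filter or block (orange) and with 1 library left out (blue), where filled symbols passed an adjusted p of 0.05. All points of Mertk are filled on both coatings and those of Axl without fibronectin, whereas points of Gas6 and Msr1 lie on both sides of 0.

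Fibronectin coating was compared with no coating within each antibody. These comparisons share their libraries with those of the antibody, so their values are not independent of the values above. In IgG, none of the 10 genes was called (0 lower and 0 higher, edgeR), where 0.124% of 12925 genes were lower and 0.325% higher, 0.449% in all. At an unadjusted p under 0.05 there were 3 lower (Mertk, Gas6 and Stab1) and 3 higher (Marco, Msr1 and Clec7a), among 1266 of all genes. With the replicate number as a block, these same genes were called in the same directions, among 133 lower and 283 higher of all genes. The replicate numbers were not taken to pair the samples. DESeq2 called 2 lower, Gas6 (adjusted p = 0.0225, with 3.92e-05 to 0.752 over all alternatives) and Stab1 (adjusted p = 0.00221, with 0.000413 to 0.547), among 41 lower and 100 higher of the 3194 genes to which it gave an adjusted p, and limma called 0. Stab1 was 426 ± 1.53 FPKM without and 387 ± 17.1 FPKM with fibronectin (SD, n = 3 each; log2 fold change -0.15, SE 0.0359, adjusted p = 0.0966). Gas6 was 320 ± 16.9 and 282 ± 26.3 FPKM (log2 fold change -0.19, SE 0.0544, adjusted p = 0.181), and Mertk differed by -0.15 (SE 0.045, adjusted p = 0.214). In these 3 genes every library with fibronectin lay below every library without it, and in Msr1 above it, which makes 3 lower and 1 higher of 10 without overlap, against 6.61% and 8.8% of all genes (15.4% in all). Clec7a (SE 0.0977, edgeR adjusted p = 0.117) and Marco (SE 0.167, edgeR adjusted p = 0.462) were each at 0.38 on the log2 scale, with overlapping groups. With 1 library left out, Marco ran from 0.18 (without IgG replicate 1 without fibronectin) to 0.59 (without replicate 3 of that group). Without IgG replicate 2 with fibronectin, Gas6 (-0.25, edgeR adjusted p = 0.0184) and Stab1 (-0.17, edgeR adjusted p = 0.0333) were called, 2 lower, among 24 lower and 77 higher of 13190 genes.

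In anti-ITGA5, 0 of the 10 genes and 0% of 12863 genes were called with fibronectin (edgeR). At an unadjusted p under 0.05 there was 1 member, Marco, among 461 genes, and DESeq2 called 5 genes but 0 members, while limma called 0 members. Marco was 2.76 ± 0.121 FPKM without and 4.43 ± 0.394 FPKM with fibronectin, with every library with fibronectin higher (SD, n = 3 each), and p was 0.10 by a 2-sided exact permutation test, which cannot go lower. It differed by 0.67 on the log2 scale (SE 0.123, unadjusted p = 0.000328, adjusted p = 0.585). When every gene with at least 1 count was tested, Marco (adjusted p = 0.00185) and Axl (adjusted p = 0.0274) were called higher, with 214 lower and 113 higher of all 25430 genes, and over all alternatives their adjusted p-values ran from 0.00185 to 1 and from 0.0274 to 1. Axl otherwise differed by 0.32 (95% interval -0.05 to 0.68, adjusted p = 0.979), and it ran from 0.084 (without anti-ITGA5 replicate 3 with fibronectin) to 0.46 with 1 library left out. Without anti-ITGA5 replicate 2 without fibronectin, 0 members were called and Marco was at 0.66 (edgeR adjusted p = 0.654). The libraries of Stab1 (lower) and Marco (higher) did not overlap between coatings, 2 of 10, against 3.95% lower and 5.79% higher of all genes (9.74% in all).

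**Figure D4:**
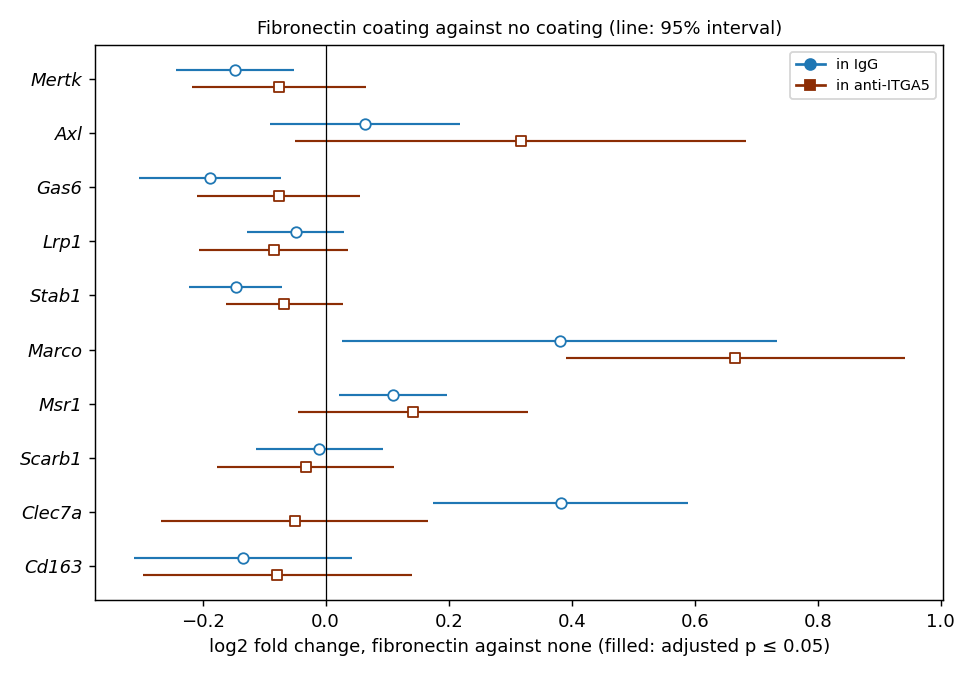
Log2 fold changes of fibronectin coating against no coating (horizontal axis) in IgG (circles) and in anti-ITGA5 (squares), with 95% intervals. No symbol is filled, since no gene passed an adjusted p of 0.05 in the reported fits, which use no replicate block. Marco lies farthest from 0, at 0.67 in anti-ITGA5.

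The antibody effect was compared between coatings as an interaction over all 12 libraries, and none of the 10 genes was called (0, edgeR), where 0.0223% of 13455 genes were. At an unadjusted p under 0.05 there was 1 member, Clec7a, among 386 genes, and DESeq2 and limma called 0 members. The interaction of Clec7a was -0.43 on the log2 scale (95% interval -0.77 to -0.10, unadjusted p = 0.0143, adjusted p = 1). For the genes that fell, the interaction was 0.07 for Mertk (95% interval -0.09 to 0.23), 0.25 for Axl (-0.17 to 0.66), -0.04 for Lrp1 (-0.17 to 0.10) and 0.29 for Marco (-0.24 to 0.82). With 1 library left out it ran from 0.030 to 0.40 for Axl and from 0.078 to 0.49 for Marco. It was 0.08 for Stab1 (-0.03 to 0.19) and -0.02 for Scarb1 (-0.20 to 0.15), so that a call on only 1 coating was not shown to be a difference between coatings.

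Other genes of uptake were followed in 7 lists of 70 genes, of which 58 were tested on each coating. Of these, 12 fell and 3 rose upon ITGA5 neutralization without fibronectin, and 18 fell and 4 rose with fibronectin, which is 25.9% and 37.9% called, beside 20.8% and 27.6% of all genes tested, with median log2 fold changes of -0.10 on each coating. The list of other scavenger receptors and lectins held more calls than any other, with 15 genes tested. Of these, 7 fell and 1 rose on uncoated dishes, and 9 fell and 2 rose on fibronectin, where 9.79% and 13.2% of all genes fell and 11% and 14.4% rose. Clec4n, which encodes the lectin dectin-2, fell from 13.4 ± 2.33 to 7.92 ± 0.745 FPKM and from 15.2 ± 1.42 to 9.36 ± 0.769 FPKM (SD, n = 3 each; log2 fold change -0.75 and -0.70, adjusted p = 0.00243 and 0.000199, edgeR). Vldlr, a lipoprotein receptor, had the largest fall of the list (-1.73 and -1.39, adjusted p = 0.00793 and 0.0174), at only 4 to 37 counts. Its call was lost without IgG replicate 1 without fibronectin (adjusted p = 0.0605), and with fibronectin without anti-ITGA5 replicate 2 (0.0533) or IgG replicate 3 (0.0647), in ranges of 0.00241 to 0.0711 and 0.000711 to 0.0868 over the alternatives.

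Among 11 tested genes of apoptotic cell recognition, 1 fell and 0 rose without fibronectin (beside 9.79% and 11% of all genes), and 3 fell and 1 rose on it (beside 13.2% and 14.4%). At an unadjusted p under 0.05, 5 were lower and 1 higher without fibronectin, where DESeq2 called 2 lower and 0 higher and limma 0, and 4329 of all 12924 genes were under that unadjusted p. Thbs1, which encodes the bridging protein thrombospondin-1, fell from 29.3 ± 6.51 to 18.7 ± 3.97 FPKM and from 28.2 ± 5.54 to 17.1 ± 3.90 FPKM (SD, n = 3 each; log2 fold change -0.65 and -0.73, adjusted p = 0.0182 and 0.00296, edgeR). The first call was lost without anti-ITGA5 replicate 1 (adjusted p = 0.0666) and without IgG replicates 2 (0.0538) or 3 (0.0895), in a range of 3.03e-16 to 0.19. Mfge8, another bridging protein, was not called (log2 fold change 0.11 and -0.12). Timd4, a phosphatidylserine receptor of resident macrophages, had 0 to 3 counts and was not tested.

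The engulfment machinery, which rearranges actin once cargo is bound, stood at 0 lower and 1 higher of 10 on each coating. Over all genes, 9.79% were lower and 11% higher without fibronectin, and 13.2% and 14.4% with it. On each coating 0 were lower also at an unadjusted p under 0.05, by DESeq2 and by limma. With fibronectin, 2 were higher at that unadjusted p and by DESeq2, and 1 by limma. The 1 gene called by edgeR was Elmo1, a partner of DOCK1 in activating Rac, which rose from 10.9 ± 0.364 to 12.5 ± 0.146 FPKM and from 10.4 ± 0.101 to 11.8 ± 0.318 FPKM (SD, n = 3 each; log2 fold change 0.20 and 0.18, adjusted p = 0.0164 and 0.00508, edgeR). Without fibronectin its call was lost without anti-ITGA5 replicate 1 (adjusted p = 0.0602) and without IgG replicates 1 (0.0812) or 3 (0.0854), in a range of 0.00208 to 0.0926. Of 7 genes of dectin-1 signaling, Syk, the kinase that the receptor engages, fell on both coatings (log2 fold change -0.17 and -0.24, adjusted p = 0.0389 and 0.00128). Its call without fibronectin was lost in 8 of 16 alternatives, among them without anti-ITGA5 replicates 1 (adjusted p = 0.157) or 3 (0.0984) and without IgG replicates 1 (0.147), 2 (0.0645) or 3 (0.153), in a range from 0.00244. In all, 1 of these 7 was lower without and 2 with fibronectin, beside 9.79% and 13.2% of all genes, and 0 were higher by edgeR, by DESeq2, by limma and at an unadjusted p under 0.05.

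Of 4 tested genes of signals against uptake, 1 fell and 1 rose without fibronectin, beside 9.79% and 11% of all genes, and DESeq2 called 0 higher there. With fibronectin 1 fell and 0 rose, beside 13.2% and 14.4% of all genes (0 higher also by DESeq2, by limma and at an unadjusted p under 0.05). Pirb, an inhibitory receptor, fell from 43.2 ± 1.96 to 33.8 ± 0.794 FPKM and from 48.3 ± 0.402 to 37.2 ± 1.92 FPKM (SD, n = 3 each; log2 fold change -0.35 and -0.38, adjusted p = 0.000934 and 6.7e-05, edgeR). Of the 3 tested sheddases, proteases that can cleave MERTK and AXL from the surface, 0 were called on either coating by edgeR and by limma. By edgeR, 20.8% and 27.6% of all genes were called without and with fibronectin. Adam10 was lower at an unadjusted p under 0.05 and by DESeq2 on both (1 gene; log2 fold change -0.21 and -0.17, adjusted p = 0.0521 and 0.0524 by edgeR). Among 8 nuclear receptors and other transcription factors, 2 were lower without and 3 with fibronectin, beside 9.79% and 13.2% of all genes, and 0 were higher by edgeR, by DESeq2, by limma and at an unadjusted p under 0.05. Rxra, the partner receptor of LXR and PPAR, had log2 fold changes of -0.37 and -0.33 (edgeR adjusted p = 0.00241 and 0.000609). Clec4n, Pirb and Rxra kept the threshold in all alternatives on both coatings, and Thbs1, Elmo1, Vldlr and Syk kept it without anti-ITGA5 replicate 2 without fibronectin.

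**Figure D5:**
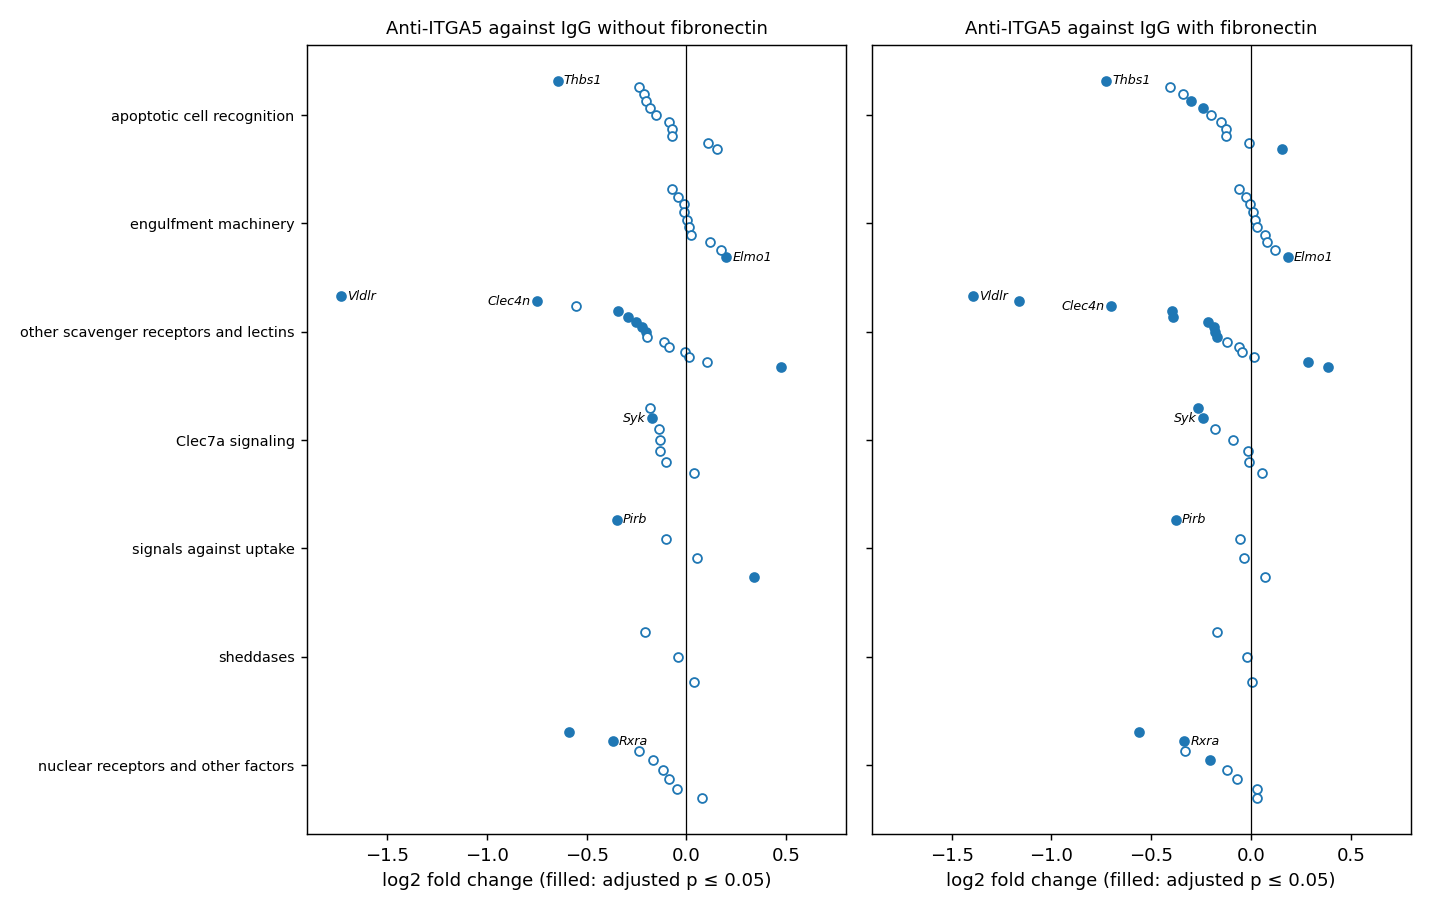
Log2 fold changes of anti-ITGA5 against IgG (horizontal axes) for the 58 tested genes of 7 lists (vertical axis), each point 1 gene, where filled points passed an adjusted p of 0.05. The 7 labelled genes were called on both coatings and are described with the lists. Of the labelled genes only Elmo1 lies above 0.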

How the data were processed

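RNA-seq was performed by the authors on 12 libraries of mouse BMMs, 3 in each of 4 groups. Per the labels and the study's methods, the authors aligned paired reads of 150 bp with TopHat2 2.0.9 to GRCm38.p6 (mm10) and counted reads per gene with HTSeq 0.6.1, and these counts were deposited without normalization. The deposited FPKM values are the authors' counts divided by gene length and a depth that, from the values, was 0.9767 to 1.063 times a library's total count and lay close to the total times its TMM factor, a further scaling that the methods do not state. Cufflinks 2.1.1 is also named in the submitters' processing notes. The strand setting and annotation release are not given in the sources used here.

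Counts were tested in R 4.3.3 with edgeR 4.0.16 (quasi-likelihood test, TMM scaling, filterByExpr with a minimum count of 10 and a minimum total of 15) on the 6 libraries of each comparison, and on all 12 for the interaction. P-values were adjusted by Benjamini-Hochberg over all genes tested, with calls at 0.05 or below. FPKM gave the levels, their spread and 2-sided exact permutation tests. The script was tested on simulated data. Alternatives were DESeq2 1.42.0, other scalings and filters, all 12 libraries in one fit, a replicate block, limma 3.58.1 on log2(FPKM + 1) or log2(FPKM + 0.1), and leaving out each library. Library totals were 12954342 to 22075432 counts.

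The 10 members and all lists were chosen with earlier results of these data known. Besides the members, the text names up to 2 genes per list with the largest mean log2 fold change among those called in the same direction on both coatings, and the 3 genes most correlated with the member that fell most. Others are named as markers, as further TAM ligands and receptors, or where a count was small, and were chosen after their values were seen. One gene that the rule selects is not reported here. Promoters came from RefSeq. No column of per-sample values was left out (0).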

Additional observations from a re-analysis of the deposited data

How the results depend on the processing

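Upon ITGA5 neutralization, Mertk on both coatings and Axl without fibronectin kept direction and threshold in all 16 alternatives. Without fibronectin the 5 members called lower became 3 with total counts in place of TMM, 2, 2 and 2 with limma on log2(FPKM + 1), on log2(FPKM + 0.1) and without a filter, 4 when every gene with at least 1 count was tested, and 2 to 6 when 1 library was left out. With fibronectin the 5 became 3 with DESeq2, 3 with total counts, 3 and 3 with limma with a filter, 1 without, 6 when every gene with at least 1 count was tested, 4 with all 12 libraries in one fit, and 2 to 4 when 1 library was left out. Total counts also moved the split over all genes, from 1265 lower and 1419 higher to 940 and 1838 without fibronectin, and from 1699 and 1866 to 1264 and 2407 with it. For fibronectin coating in IgG, where 0 were called, DESeq2 called 2 lower, testing every gene with at least 1 count called 2 lower and 1 higher, and leaving out 1 library gave 0 to 2 lower. For coating in anti-ITGA5, testing every gene with at least 1 count called 2 higher. The causes were not tested.

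The replicate numbers were not taken to pair the samples, since same-numbered samples correlated in their deviations from the group means by only -0.0196 to 0.149. In both antibody comparisons and in coating in IgG, but not in coating in anti-ITGA5, every sample correlated best with its own number, which is a hint from the data and not the design. With the replicate number as a block, 5 and 6 members were lower upon neutralization without and with fibronectin, 3 were lower (Gas6, Stab1 and Mertk) and 3 higher (Clec7a, Msr1 and Marco) for coating in IgG, where the calls over all genes went from 16 lower and 42 higher to 133 and 283, and 0 were called in the interaction.

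Signs of small differences turned in these cases. Msr1 was at 0.012 with total counts upon neutralization with fibronectin. Leaving out 1 library, the log2 fold change upon neutralization ran from -0.1162 to 0.0243 for Msr1 without fibronectin, from -0.06783 to 0.02702 for Msr1 with fibronectin and from -0.02706 to 0.1057 for Gas6 with fibronectin. For coating it ran from -0.004026 to 0.1285 for Axl and from -0.0443 to 0.02463 for Scarb1 in IgG, and from -0.08858 to 0.003332 for Scarb1 and from -0.1233 to 0.045 for Clec7a in anti-ITGA5. The interaction ran from -0.05249 to 0.09543 for Msr1, from -0.07058 to 0.02668 for Scarb1, from -0.02897 to 0.1453 for Cd163 and from -0.06664 to 0.009992 for Lrp1. None of these was called in the reported fits.

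Low counts limit the precision for Marco, at 71 to 293 counts, and Vldlr, at 4 to 37 counts. Each symbol named had 1 gene identifier, so that alternative gave no other value. The other named genes were recomputed for the antibody comparisons only.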
